A study of Rattus norvegicus with 4 samples.

Results

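The galectin genes Lgals1, Lgals3, Lgals8 and Lgals9, together with Lgals3bp, were examined in a rat alveolar macrophage line, NR8383, derived from lung lavage. The genes were chosen by name, and their probes were found through the RefSeq accession printed for each spot. They make up 5 of 16581 named genes, 8 of 45598 probes and 26 of 58717 non-control spots. All 4 samples belonged to 1 group, cells at 20 passages that had spent 4 h with NRCWE055, single-walled carbon nanotubes in their pristine form, at 11 cm2/cm2. No genotype, strain or other agent distinguishes the samples, and the design text names them biological replicates. The design also names unexposed control cells, which were not analysed here, so the values give levels under exposure and no response to it. The titles give NRCWE055 and the treatment entries pristine nanotubes for every sample, whereas another nanotube number stands in the source name of each of replicates 2, 3 and 4, and the grouping went by title.

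Galectins are sugar-binding proteins that recognise galactose-containing glycans. They are made in the cytosol, and the glycans they bind lie on the cell surface and on the inner face of endosomes and lysosomes, so a ruptured vesicle exposes its glycans to them and they gather on it. Galectin-3, long known as the macrophage antigen Mac-2, and galectins 8 and 9 are among those that collect on damaged lysosomes. Lgals3bp encodes a secreted glycoprotein that binds galectins and is not itself a galectin, so the set holds 4 galectin genes and 1 gene for a binding partner.

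Each array carried the RNA of 1 culture, and its 75th percentile of processed signal, taken over probes that every array detected, was 1756, 2631, 2861 and 1873 in replicates 1 to 4. Replicates 2 and 3 were therefore the brighter arrays. Levels are given as log2 of the processed signal less that percentile, so 0 is the percentile itself, and gene levels as mean ± SD over the 4 arrays. They describe a probe on these arrays with no comparison from gene to gene. Of the macrophage markers, 8 of 9 measured genes exceeded background on every array, where 52.4% of all named genes did. Cd68 was among them at 3.07 ± 0.10 (SD, n = 4), and Adgre1 passed on none. Of the genes listed as markers of other cell types, 9 of 27 measured genes exceeded background on every array. They were listed as endothelial (Pecam1, Cdh5, Vwf), T cell (Lck, Cd4), B cell (Pax5), neutrophil (S100a8, Camp) and erythroid (Epor). The pair of Vwf probes lay 6.4 apart on the log2 scale, and whether macrophages also express these genes was not tested. Camp was at 0.45 ± 0.04 and Pecam1 at -0.89 ± 0.14, whereas the lung epithelial markers Sftpc, Epcam and Cdh1 passed on none. The precision of every value is limited by the number of arrays, 4.

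Among the 5 genes, Lgals1, Lgals3, Lgals3bp and Lgals8 were well above background on all 4 arrays, and Lgals9 was on none. A share of 4 of 5 compares with 52.4% of all named genes that were detected on all arrays, and 5 genes are too few to set a share against that background. Every one of the 7 probes for the detected genes passed on all arrays. These are levels in whole cultures, where fewer cells with a transcript and less of it per cell cannot be told apart, and the part of the markers of other cell types in them was not tested.

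Lgals1 encodes a galectin with a single carbohydrate-recognition domain that acts as a dimer. Its probe gave mean processed signals of 14650, 19800, 22800 and 15860 in replicates 1 to 4, or levels of 3.06, 2.91, 2.99 and 3.08 (3.01 ± 0.08, SD, n = 4). The levels lay within 0.17 of one another, with replicate 2 lowest and replicate 4 highest.

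Lgals3 encodes the chimeric galectin, whose carbohydrate-recognition domain is joined to a proline- and glycine-rich tail through which the protein forms oligomers. The gene had a pair of probes. The probe printed 10 times gave mean processed signals of 124100, 128300, 125700 and 113700 in replicates 1 to 4 and levels of 6.14, 5.60, 5.46 and 5.92. The probe printed once gave signals of 156700, 169000, 157600 and 148300 and levels of 6.48, 6.01, 5.78 and 6.31. Both probes put replicate 1 highest and replicate 3 lowest, and both spanned close to the same interval, 0.69 and 0.70 on the log2 scale. The gene averaged 5.96 ± 0.31 (SD, n = 4).

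Lgals3bp, the gene of the galectin-binding glycoprotein, had 1 probe with signals of 7983, 13200, 14770 and 9363 and levels of 2.18, 2.33, 2.37 and 2.32 (2.30 ± 0.08, SD, n = 4). Replicate 1 was lowest here, and the other arrays lay between 2.32 and 2.37.

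Lgals8 encodes a tandem-repeat galectin, with different carbohydrate-recognition domains in 1 chain, which recruits the autophagy receptor NDP52 to damaged vesicles in human cells. It was measured by 3 probes, each printed once. Probe A_44_P1043457 gave levels of -1.98, -2.04, -2.12 and -1.89 in replicates 1 to 4. Probe A_44_P1099180 gave -2.14, -2.02, -2.09 and -2.15, and probe A_44_P116471 gave -2.16, -2.18, -2.26 and -2.31. The 3 probes did not rank the arrays alike, their means lay within 0.22 of one another, and the gene averaged -2.11 ± 0.03 (SD, n = 4).

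Lgals9, another tandem-repeat galectin and a ligand of the receptor TIM-3, had 1 probe with 1 spot per array. Its processed signals were 6.34, 4.05, 4.71 and 4.23 in replicates 1 to 4, and the scanner software put the error of these values at 75% to 100.6% of the signal, against 10.0% to 10.1% for the probes of the detected members. The raw median intensity of the spot was 57 to 62, over a local background of 39 to 45. The looser flag, a significance test against background, passed on replicate 1 only. The probe is listed under 1 of several RefSeq transcripts of the gene, and whether it covers the others was not tested.

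Among 7 further family genes, 3 were detected on all arrays (42.9%, against 52.4% of all named genes). Lgals12, a tandem-repeat galectin known from fat cells, was at -2.60 ± 0.06 by 1 probe, while its other probe was well above background on 1 array. Lgalsl, which encodes a galectin-like protein, was at -4.30 ± 0.17. Lgals5, known from rat reticulocytes, was at -6.04 ± 0.19 by 1 probe, while its other probe was well above background on no array and passed the looser flag on 3, and the lowest detected levels were between -7.49 and -6.81 across arrays. Lgals2, Lgals4, Lgals7 and Grifin, which encodes a lens protein related to galectins, passed on no array. With the same looser flag the Lgals2 probe and 1 Grifin probe passed on all 4 arrays.

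The bases upstream of the start are shown because detected and undetected genes of these arrays differed there in their content of CG dinucleotides, and the set holds members of both kinds. RefSeq promoters (GRCr8) were found for 3 of the 5 genes, Lgals3bp, Lgals8 and Lgals9, and the table held none for Lgals1 or Lgals3. The 250 bases before the annotated start follow 5′ to 3′ on the gene's strand in lower case, with every CG dinucleotide in capitals. Lgals3bp lies at chr10:104127849-104128098 (minus strand), Lgals8 at chr17:62719603-62719852 (plus strand) and Lgals9 at chr10:64428071-64428320 (minus strand).
Lgals8: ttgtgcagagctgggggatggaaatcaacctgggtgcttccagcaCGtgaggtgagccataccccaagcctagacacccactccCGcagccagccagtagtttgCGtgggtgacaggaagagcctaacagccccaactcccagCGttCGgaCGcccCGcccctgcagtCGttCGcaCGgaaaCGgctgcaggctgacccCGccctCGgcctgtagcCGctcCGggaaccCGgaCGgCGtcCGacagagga
Lgals3bp: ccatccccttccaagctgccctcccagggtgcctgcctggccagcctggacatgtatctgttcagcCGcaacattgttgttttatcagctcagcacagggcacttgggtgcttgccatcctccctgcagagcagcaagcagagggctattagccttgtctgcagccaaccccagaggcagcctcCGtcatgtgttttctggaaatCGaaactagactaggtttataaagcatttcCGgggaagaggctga
Lgals9: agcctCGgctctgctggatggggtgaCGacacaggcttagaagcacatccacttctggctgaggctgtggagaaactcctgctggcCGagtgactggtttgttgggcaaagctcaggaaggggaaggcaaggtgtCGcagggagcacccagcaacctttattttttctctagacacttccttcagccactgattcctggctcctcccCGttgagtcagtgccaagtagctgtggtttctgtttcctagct

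Lgals8 had 19 CG dinucleotides, Lgals3bp 4 and Lgals9 5. The median was 16 over the promoters of 7709 genes detected on all arrays and 5 over those of 6962 genes with a probe that were not. Lgals8 and Lgals9 thus lay near the median of their own class, and Lgals3bp was detected with a CG count below the lower quartile of detected genes, 9. Of the other family genes, Lgals5 had 4, Lgals2 had 7, Lgals4 had 2, and Lgals7 and Grifin had 6 each. The E-box CACGTG occurred once in the Lgals8 window and in neither of the other printed windows, against 5.6% of all 33469 promoters and 8.2% of those of genes detected on all arrays. The AP-1 type motif TGANTCA occurred once in Lgals9 and is found in 6.3% of all promoters and in 6.7% of those of genes with a probe that were not detected on all arrays. Both motifs read the same on either strand. The GC box GGGCGG, searched on both strands, occurred 2 times in Lgals8 and in neither of the others, against 30.5% of all promoters, 57.6% of those of detected genes and 30.0% of those of genes that were not. These matches describe letters in the window and are not measured binding sites.

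The detected members differed widely in how far the 4 arrays lay apart, and their order changed without scaling between arrays. The SD was then smallest for Lgals3, at 0.075, and largest for Lgals3bp, at 0.416. The values given next are after scaling. The SD over arrays was 0.031 for Lgals8, 0.076 for Lgals1, 0.080 for Lgals3bp and 0.309 for Lgals3, against a median of 0.093 over the 8685 detected genes. Of those genes, 5.2% had a smaller SD than Lgals8, 38.0% a smaller one than Lgals1, 40.7% a smaller one than Lgals3bp and 95.3% a smaller one than Lgals3. For the first 3 of these members, the lowest SD with 1 array left out came from a different array each. Without replicate 3 that of Lgals8 was 0.014, without replicate 2 that of Lgals1 was 0.047, and without replicate 1 that of Lgals3bp was 0.020. Each array was picked for lowering the SD most, a choice that tends to lower it in any gene. The share of genes with a like drop is not given here. The SD of Lgals8 is also that of a mean over 3 probes that ranked the arrays differently, whose own SDs were 0.097, 0.057 and 0.070. By its brightest probe alone it was 0.097, and with normexp correction of the 3 probes it was 0.054. The same correction gave 0.126 for Lgals3bp. Of the 4 detected members, Lgals3 alone spanned over 0.5 on the log2 scale, where 11.2% of all detected genes did. This depended on the scaling, since its probe printed 10 times spanned 0.34 with quantile normalization and 0.17 with no scaling between arrays, where that of Lgals1 spanned 0.64. The same Lgals3 probe spanned 0.68 with median centring, 0.67 with the 75th percentile of all probes and 0.61 with normexp correction. Without replicate 1 it spanned 0.47.

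**Figure D1:**
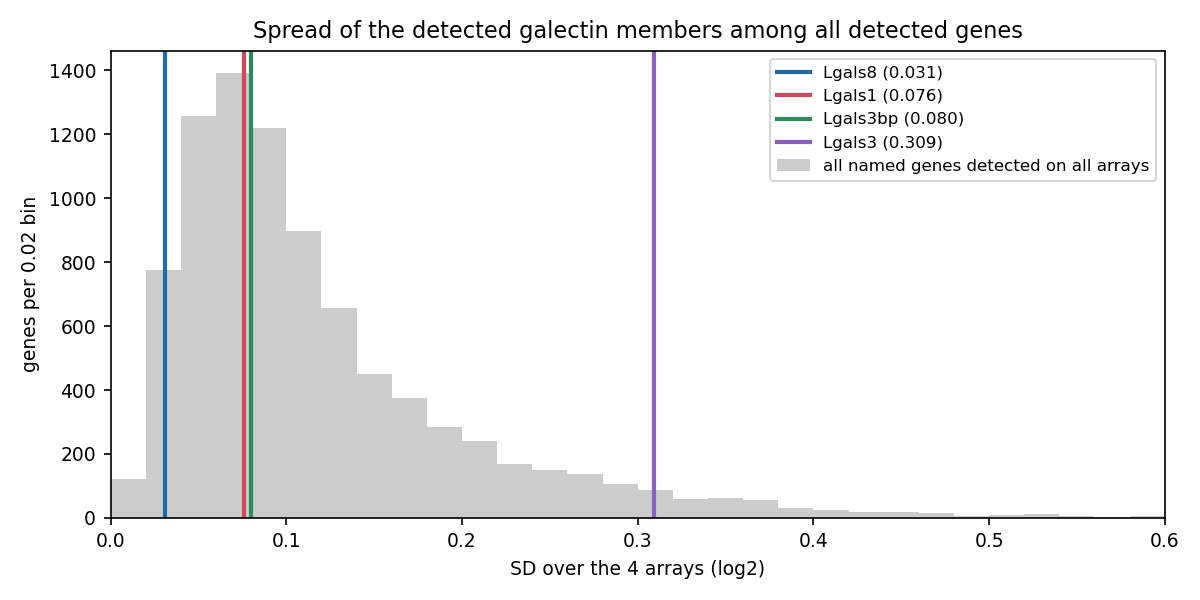
The grey bars count the 8685 named genes detected on all arrays by their SD over the 4 arrays (log2, bins of 0.02), and coloured lines mark the 4 detected members, all under the 75th percentile scaling. Lgals8, Lgals1 and Lgals3bp lie at or left of the bulk of the genes and Lgals3 lies in the right tail, and 37 genes with an SD above 0.6 fall beyond the axis.

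Lgals1 and Lgals3 were each measured by a probe printed 10 times per array, which sets the difference between arrays against the spread of spots within an array. A probe's spots hold the same positions on every array, and part of that spread repeated, since the same pair of Lgals1 spots was highest on each. On replicate 1 the Lgals3 spots ran from 6.04 to 6.25 with a median of 6.14, and on replicate 4 from 5.85 to 6.02 with a median of 5.91. On replicate 2 they ran from 5.43 to 5.73 with a median of 5.61, and on replicate 3 from 5.34 to 5.61 with a median of 5.47. Spots of replicates 2 and 3 overlapped, and no other pair of arrays did, the narrowest gap being 0.02 between replicates 1 and 4. The share of other probes printed 10 times whose spots separate in this way is not given here. The separation is therefore not read as particular to Lgals3. In limma's moderated F test over spots, the largest difference was 0.69 (adjusted p = 5.10e-18, Benjamini-Hochberg over 1742 probes), with a spot SD within arrays of 0.078. For Lgals1 the spots ran from 2.92 to 3.16 on replicate 1, from 2.83 to 3.05 on replicate 2, from 2.89 to 3.12 on replicate 3 and from 2.97 to 3.21 on replicate 4, so every pair of arrays overlapped. At every printed position, however, Lgals1 was lowest on replicate 2. Neither these ranges nor the test paired spots by position. The largest difference was 0.17 (limma adjusted p = 3.21e-04). Without replicate 2 it was 0.09 (limma adjusted p = 0.0867), and from median signals with normexp correction it was 0.18 (limma adjusted p = 0.484).

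Both galectin probes passed this test, as did 42.8% of all probes printed several times and 65.7% of those printed 10 times, so passing does not set them apart. In size, the difference for Lgals3 exceeded those of most such probes, since 99.1% of the probes printed 10 times differed by less, whereas for Lgals1 53.9% did. Spots share an array, and with 1 array per culture a difference between cultures cannot be told apart from one of labelling, hybridisation or scaling.

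**Figure D2:**
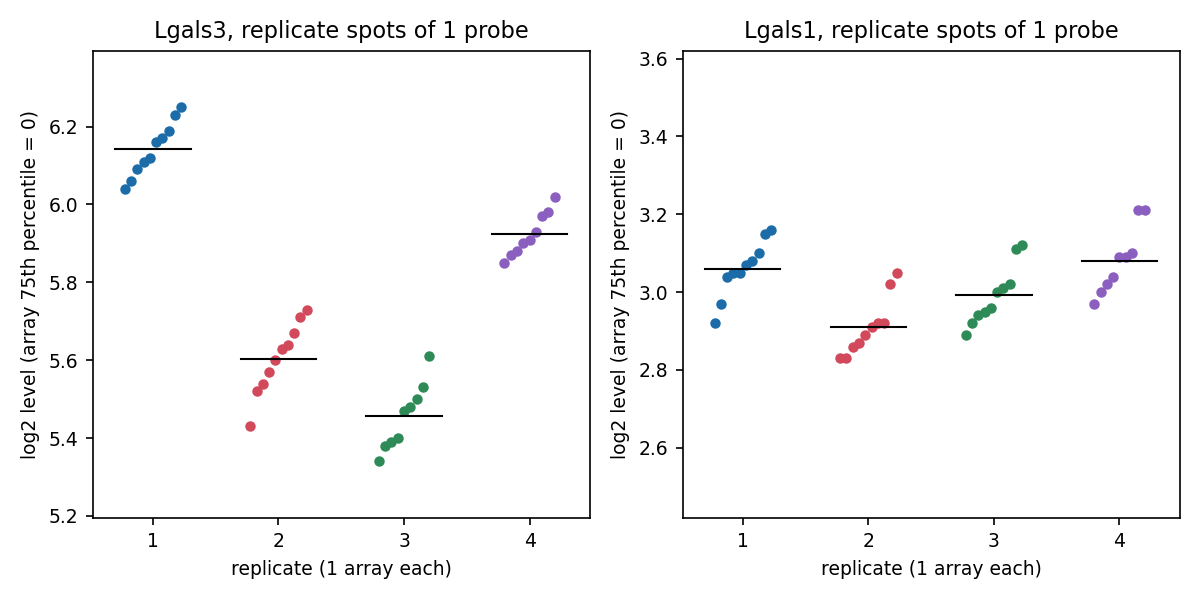
Each point is 1 spot of the Lgals3 (left) or Lgals1 (right) probe printed 10 times per array, as log2 level with the array's 75th percentile at 0, and the bars are the means per array. Lgals3 spots of replicates 1 and 4 lie above all those of replicates 2 and 3, and Lgals1 spots of all arrays overlap.

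Before scaling, Lgals3 was the member whose signal changed least from array to array. Its probe printed 10 times gave 1.03, 1.01 and 0.92 times the signal of replicate 1 on replicates 2, 3 and 4, and its other probe 1.08, 1.01 and 0.95 times. Lgals1 had ratios of 1.35, 1.56 and 1.08, and Lgals3bp of 1.65, 1.85 and 1.17. For the Lgals8 gene they were 1.51, 1.56 and 1.05. The 75th percentile of those arrays was 1.50, 1.63 and 1.07 times that of replicate 1. Signals of Lgals1, Lgals3bp and Lgals8 thus followed the brightness of the array, and those of both Lgals3 probes did not.

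The unscaled Lgals3 signal spanned 1.13-fold between its highest and lowest array, whereas the scaled level of the same probe spanned 1.61-fold in the opposite order of array brightness. The 100 genes with the highest levels had median ratios of 1.25, 1.29 and 0.98, between those of Lgals3 and those of all detected genes, which were 1.50, 1.65 and 1.07. Among the 869 genes with the highest levels, the median SD was 0.064 and 98.2% had a smaller SD than Lgals3. The levels of these genes ran from 2.05 to 7.36, and that of Lgals3 was 5.96. This was above the median level of the 100 brightest genes, 5.61, and the share with a smaller SD among those 100 is not given here. No spot of any member was saturated. The raw median intensity of the Lgals3 spots was 121700 to 137900, against a saturation value of 779451 in the file headers. With quantile normalization, which gives every array the same distribution of signals, the SD of Lgals3 was 0.134 and its largest difference was 0.34 (limma adjusted p = 1.60e-08). Why the Lgals3 signal did not follow array brightness was not tested.

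**Figure D3:**
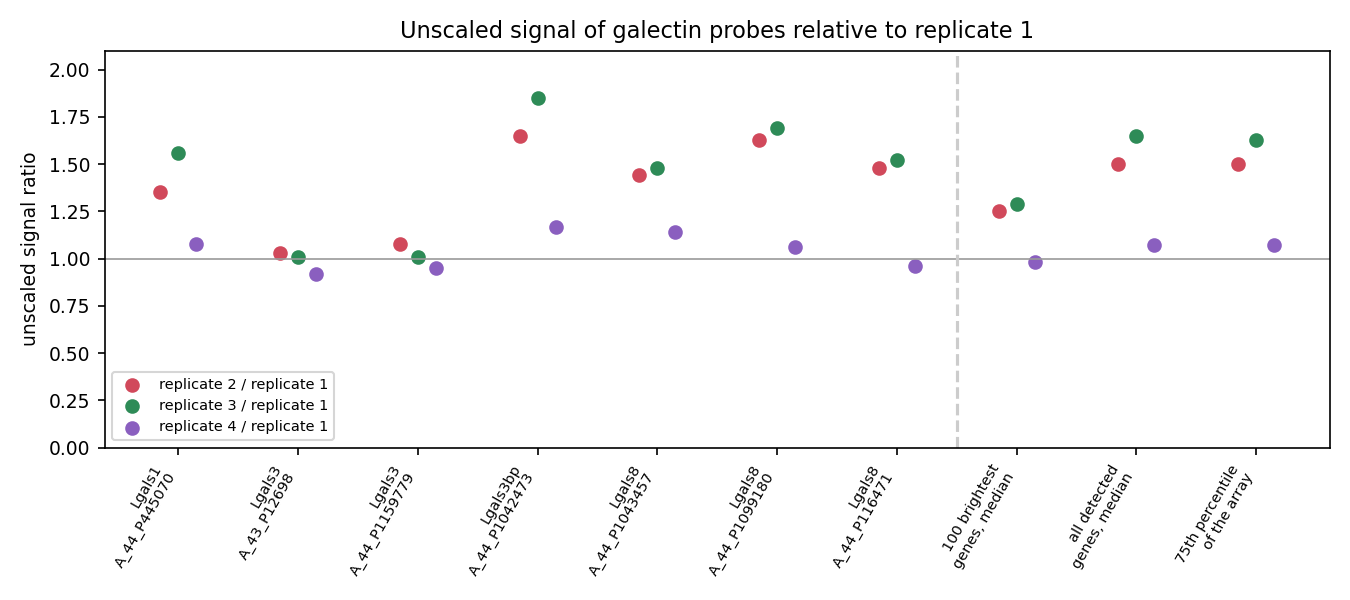
Points give the processed signal before scaling on replicates 2, 3 and 4 as a ratio to replicate 1, for the 7 probes of detected members (left of the dashed line) and for the 100 brightest genes, all detected genes and the 75th percentile of the array (right). Both Lgals3 probes stay between 0.92 and 1.08 on every array, while the other probes reach 1.48 to 1.85 on replicate 3.

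The genes whose profile over the 4 arrays was nearest to that of Lgals3, by root mean square distance between profiles centred on their means, included Fth1 (0.017), Tbx21 (0.023), Rplp1 (0.027) and Car9 (0.030). Fth1 encodes the ferritin heavy chain, and Rplp1 encodes a ribosomal protein. Fth1 was at 6.17, 5.68, 5.52 and 6.02 in replicates 1 to 4. Rplp1 was at 6.37, 5.87, 5.63 and 6.12. Tbx21, a transcription factor gene of T cells, was at 4.01, 3.48, 3.35 and 3.81, and the carbonic anhydrase gene Car9 was at -4.76, -5.27, -5.39 and -4.96. Of the members, Lgals1 lay at a distance of 0.227, Lgals8 at 0.255 and Lgals3bp at 0.330. The distance rests on 4 arrays and on the scaling used. Scaling puts any gene with an even unscaled signal highest on replicate 1 and lowest on replicate 3, which was the order of the genes listed here. A small distance to Lgals3 is therefore no measure of shared regulation.

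Genes that act with galectins on damaged vesicles, or that make or carry the glycans they bind, were also measured in these cultures. Of 41 such genes 38 had a probe and 33 were detected on all arrays, where 52.4% of all named genes were. Each list below holds too few genes to set its own share against that one. Of those 33, Mtor and Mgat2 spanned over 0.5 on the log2 scale, where 11.2% of all detected genes did. Of 7 probes printed several times for these genes, 2 passed the test over spots, for Pdcd6 and Cd63, with largest differences of 0.13 (limma adjusted p = 8.51e-05) and 0.18 (limma adjusted p = 0.00137). Among the 5 of these probes printed 10 times, 2 passed, against 65.7% of all such probes, and 42.8% of all probes printed several times passed.

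In the autophagy of damaged lysosomes, 5 of 7 measured genes were detected on all arrays. Sqstm1, which encodes the autophagy receptor p62, was at 2.33 ± 0.05, its 3 probes spanning 2.39. Map1lc3b, which encodes the membrane-bound marker of autophagosomes LC3B, was at 2.39 ± 0.08, its 4 probes spanning 2.72. The receptor genes Tax1bp1 and Optn were at -1.69 ± 0.07 and -1.62 ± 0.07, with the 3 Optn probes spanning 3.26, and Atg16l1, whose product directs the lipid coupling of LC3, was at -0.68 ± 0.06. Trim16, which encodes a partner of galectin-3 in human cells, was detected on 1 array, and Tbk1, the kinase of these receptors, on 3. No named probe was found for Calcoco2, the gene of NDP52.

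In membrane repair by the ESCRT machinery, which reseals small lesions, 4 of 5 measured genes were detected. The calcium sensor gene Pdcd6 was at 2.43 ± 0.06, and Pdcd6ip, which encodes the ESCRT adaptor ALIX, at -2.03 ± 0.12, its pair of probes 2.53 apart. The ATPase genes Vps4a and Vps4b were at -2.49 ± 0.03 and -3.38 ± 0.10. Tsg101 was not well above background, and Chmp4b had no named probe. For the removal of ubiquitin-tagged lysosomes, 2 of 3 measured genes were detected. Vcp, which encodes the segregase p97, was at 2.20 ± 0.05 and its cofactor gene Plaa at -2.08 ± 0.18. The cofactor gene Yod1 was not well above background, and Ubxn6 had no named probe.

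All 8 genes of kinase signalling on the lysosome were detected. Mtor was at -4.35, -3.73, -4.25 and -4.18 in replicates 1 to 4, with replicate 2 highest, and the Ragulator gene Lamtor1 was at 0.51 ± 0.05. Rraga, a GTPase that ties mTORC1 to the lysosome, was at -2.82 ± 0.10 and the amino acid sensor gene Slc38a9 at -5.60 ± 0.14. The AMPK subunit gene Prkaa1 was at -2.87 ± 0.08 and the AMPK-activating kinase gene Map3k7 at -3.79 ± 0.12, with pairs of probes 2.74 and 1.81 apart. The deubiquitinase gene Usp9x was at -5.34 ± 0.19 by 1 of its 2 probes. Tfeb, which encodes a transcription factor of lysosomal genes, was at -1.41 ± 0.08.

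All 6 genes of N-glycan synthesis were detected, Mgat5 and St6gal1 each by 1 of 2 probes. Mgat1, Mgat2, Mgat4a and Mgat5, which encode the transferases that start the branches of N-glycans, were at -0.56 ± 0.06, -2.49 ± 0.22, -2.05 ± 0.07 and -4.29 ± 0.09. The galactosyltransferase gene B4galt1, whose product adds the galactose that galectins bind, was at -1.83 ± 0.22. St6gal1, which encodes the sialyltransferase that caps such galactose, was at -6.58 ± 0.22, close to the lowest detected levels.

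Of 9 glycoproteins and receptors that bind galectins or Lgals3bp, 8 were detected. The lysosomal membrane glycoprotein genes Lamp1 and Lamp2 were at 1.75 ± 0.05 and -0.02 ± 0.06, and the tetraspanin gene Cd63 at 4.22 ± 0.08. Cd44, the gene of the hyaluronan receptor, was at 1.1 ± 0.05, Itgb1 at 0.40 ± 0.02, Itgam at -2.53 ± 0.13, Cd9 at 0.08 ± 0.10 and Cd82 at -2.73 ± 0.09. The pairs of probes lay 2.83 apart for Lamp2, 2.67 for Cd44, 1.76 for Itgam and 1.69 for Itgb1. Havcr2, the gene of the galectin-9 receptor TIM-3, passed on no array, as was the case for Lgals9.

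**Figure D4:**
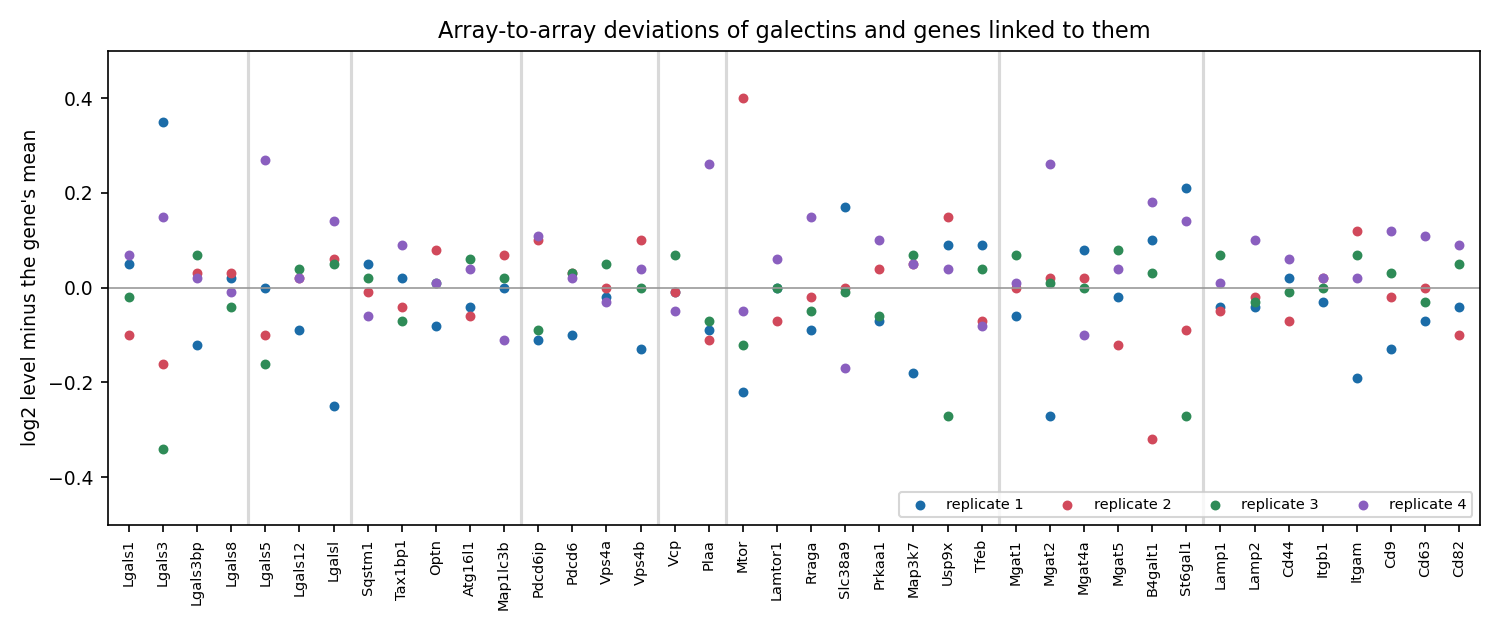
Points give each array's log2 level less the gene's own mean, for the detected galectins and the detected genes linked to them, with grey lines between gene lists. Lgals3 reaches 0.35 above its mean on replicate 1 and 0.34 below it on replicate 3, with replicate 2 of Mtor the farthest point among the linked genes.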

How the data were processed

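Cy3-labelled cRNA from 4 exposed cultures was measured on 1-colour Agilent arrays, 1 per culture. The deposited files hold spot intensity values made with version 11.0.1.1 of Agilent Feature Extraction (as the submitters' processing notes and the file headers state), which had subtracted background and removed trends within an array, and no normalization between arrays had been applied. All arrays shared a slide and a scan, so neither could be tested as a batch. Control spots and 427 to 714 outlier spots per array were left out, and the log2 signals of each probe's remaining spots were averaged. Detection required the well-above-background flag on over 50% of them. Since 40.8% to 43.7% of probes were detected per array, the 75th percentile of the 17807 probes that all arrays detected served to scale each array. Gene levels average the detected probes. Probes were named by RefSeq accession through a table of assembly GRCr8 (21109 of 45598 matched), and since the array was designed on another build, no gene coordinates are given from it. Probe and protein sequences were not used here. Replicate spots were tested with limma 3.58.1 (R 4.3.3, version 1.17.8 of data.table) by a moderated F test with the array as factor and Benjamini-Hochberg adjustment at 0.05. The test was checked on simulated data. Figures were drawn with matplotlib 3.10.9 in Python 3.11.15. Members, gene lists and tests were chosen with earlier results of these data known. The genes named were the members, fixed lists of family and linked genes whatever their values, and the 5 genes nearest in profile to the member with the largest SD, of which 1 is not reported here.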

Additional observations from a re-analysis of the deposited data

Results flagged for a closer look

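Dixon's ratio was used to ask whether 1 array stood apart from the other 3 in 45 series of levels of the members, the family and the linked genes. In 5 of them 1 array stood apart past the 95% critical value, where chance gives about 1 in 20, or 2.25, if series are independent. All series share the scaling of each array and are not independent, so 5 cannot be read as an excess. The share of all detected genes past that value is not given here. None was a member of the set. Lgals12 was at -2.69 on replicate 1, against -2.58 to -2.56 on the others. Pdcd6 was at 2.33 on replicate 1, against 2.45 to 2.46, and Map3k7 was at -3.97 on replicate 1, against -3.74 to -3.72. Plaa was at -1.82 on replicate 4, against -2.19 to -2.15, and Lamp2 was at 0.08 on replicate 4, against -0.06 to -0.04.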

How the results depend on the processing

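The 4 detected members were the same in number with a looser detection flag, with detection required on 3 arrays only, with outlier spots kept and each left-out replicate. The median SD of the detected members was 0.078 and lay between 0.066 and 0.103 under the planned changes of background correction, scaling, filter, probe choice and outlier spots, and between 0.062 and 0.087 with 1 replicate left out. The run with no filter on dim probes took in the undetected Lgals9, and its median was 0.080 over 5 members, against 0.244 over all named genes. Without any scaling between arrays, chosen after seeing the data, the median SD of the 4 detected members was 0.316 (0.364 over all detected genes). The SD was then 0.075 for Lgals3, 0.293 for Lgals1, 0.339 for Lgals8 and 0.416 for Lgals3bp. The number of galectin probes past the test over spots was 2, where 42.8% of all probes printed several times passed. It was 1 with normexp correction, where 12.7% of all such probes passed. With 1 replicate left out it was 1 to 2, where 30% to 39.8% passed. The largest difference of Lgals3 passed under every alternative run, between 0.17 without scaling and 0.71 with outlier spots kept. The test has no direction, and the difference without scaling was another one, with replicate 2 highest and replicate 4 lowest. In that run 96.6% of all probes printed several times passed. The cause of these changes was not tested. No paired analysis was possible because all samples belong to 1 group. Normexp correction used raw median signals.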
